A study of Mus musculus with 16 samples.

Results

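The transcripts described here come from 9 genes of the endoplasmic reticulum (ER) in which human mutations cause polycystic kidney disease, polycystic liver disease or a related tubular kidney disease. They are Ganab, Prkcsh, Dnajb11, Sec63, Sec61b, Sec61a1, Alg5, Alg8 and Alg9, listed by name for their role in glycoprotein biogenesis. Earlier results of these data were known when the genes were listed. All 9 were found by Ensembl identifier among the 55536 genes counted, and all 9 passed the filter on low counts that left 15316 genes to be tested. RNA was measured in 16 libraries of an epithelial cell line of the mouse inner medullary collecting duct, where the kidney tubule ends, which carries a Pkd2 deletion that doxycycline (DOX) induces. Each of the 4 groups has 4 libraries: passage 7 cells with DOX, passage 7 cells without DOX, passage 4 cells with DOX and passage 4 cells without DOX. DOX was given at 2 ug/mL for 6 days, and all groups stood on filters for 10 days in the same medium. The series asks for the early transcriptomic response to loss of Pkd2. All groups carry the same inducible allele: the titles call every sample Pkd2KO, while the genotype label of the cells without DOX is wild type. No group received DOX without carrying the allele, so an effect of DOX itself and an effect of Pkd2 loss cannot be told apart. The labels name a single cell line, do not say whether it is a clone or what drives the recombinase, and do not say that replicates were separate cultures, so the p-values measure the spread between these libraries, which may be technical.

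Proteins that enter the secretory pathway pass through the Sec61 translocon, whose pore is Sec61a1 and whose small subunit is Sec61b, and Sec63 helps the chaperone BiP to pull them in. On the luminal side an N-glycan is attached that was built beforehand on the lipid dolichol: Alg9 adds mannoses to it, Alg5 makes the dolichol-linked glucose donor, and Alg8 adds a glucose from that donor. After transfer, glucosidase II, made of the catalytic subunit Ganab and the regulatory subunit Prkcsh, trims glucoses so that lectin chaperones can bind and release the protein. Dnajb11 (ERdj3) is a soluble co-chaperone that hands unfolded clients to BiP. Polycystin-1, the large membrane protein encoded by Pkd1, is a heavily glycosylated client of this machinery, and the machinery is best known in kidney and liver cysts for limiting how much mature polycystin-1 reaches the cell surface.

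Library totals were 9937504 to 17188295 counts, and the 9 genes had between 187 (Alg8) and 7176 (Ganab) counts in a single library. Levels are given as CPM, the counts of a gene relative to those of its library, scaled between libraries by TMM. Pkd2 itself, the deleted gene, was at 56.7 ± 8.07 CPM in passage 7 cells with DOX, against 185 ± 1.40 CPM in passage 7 cells without (SD, n = 4 each). At passage 4 it was at 52.7 ± 3.98 CPM with DOX, against 140.1 ± 4.24 CPM without. Of 17 collecting duct markers 11 were tested, and the water channel Aqp2, a defining marker, had no count in any library. Replicates 1 and 2 stood apart from replicates 3 and 4 in every group, for which the labels name no batch, so for the 9 genes a result whose call differed between these pairs is given for each. No difference between the pairs in a response was itself tested.

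The differences of the 9 genes with DOX were small. Averaged over the passages, Dnajb11 was the only one of the 9 called higher with DOX and Alg9 the only one called lower (edgeR's quasi-likelihood test, Benjamini-Hochberg adjusted over all 15316 genes, threshold 0.05, as for every adjusted p here). Of all tested genes 15.7% were called higher in this comparison, 16.6% lower and 32.3% in either direction, against 2 of the 9. The median absolute log2 fold change was 0.11 over the 9 genes and 0.14 over all tested genes, and the largest among the 9 was 0.17. The signed median was 0.05 for the 9 genes.

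**Figure D1:**
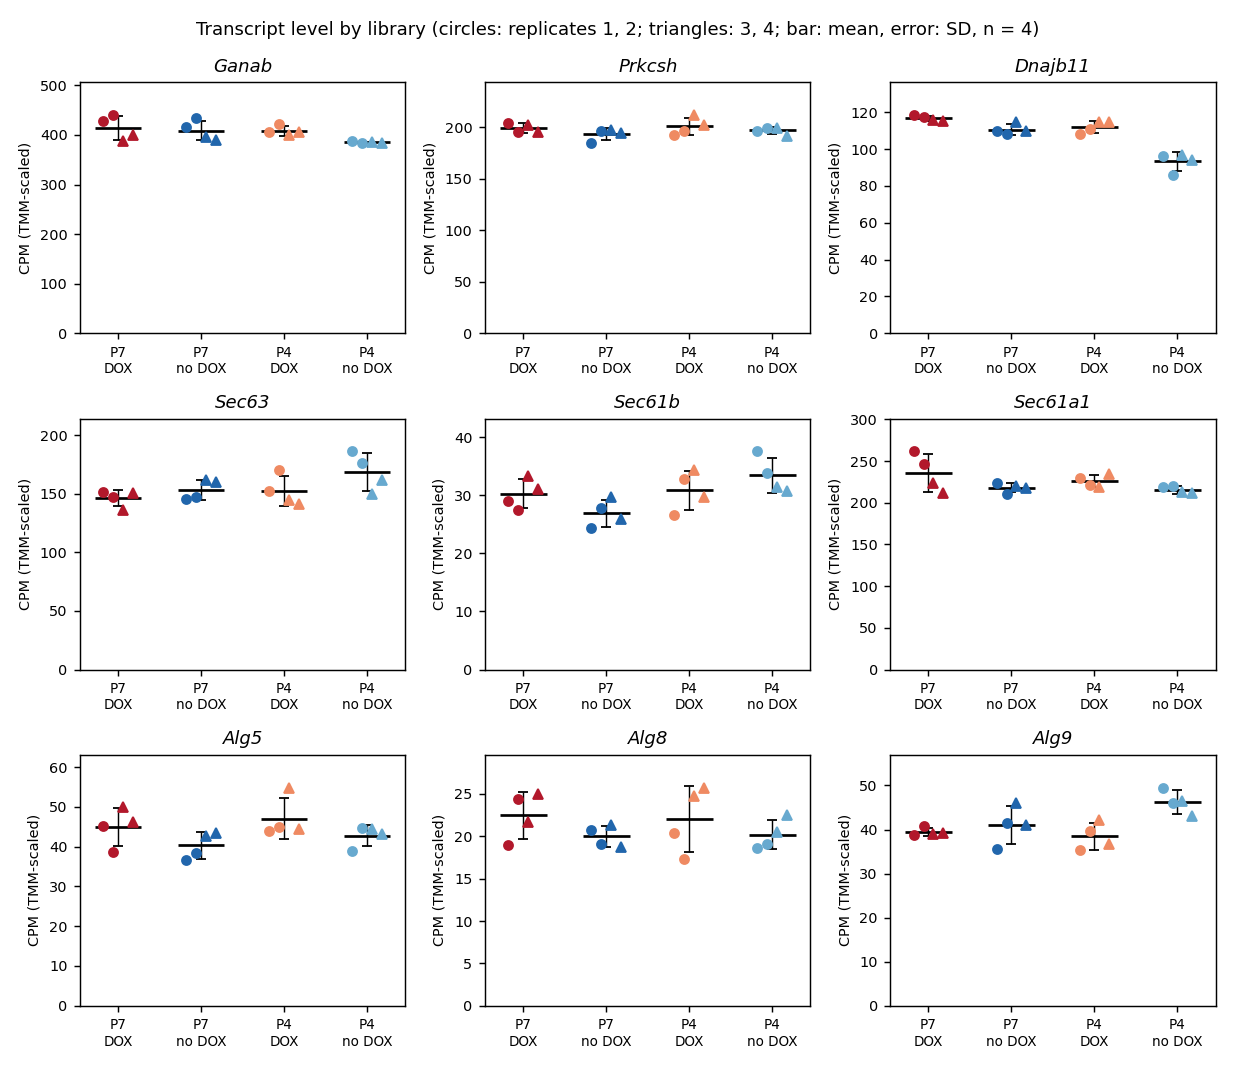
Transcript level of the 9 genes in each library, in TMM-scaled CPM on axes that start at 0. Groups run from passage 7 with DOX to passage 4 without DOX; circles are replicates 1 and 2, triangles replicates 3 and 4, bars the mean and error bars the SD (n = 4). Dnajb11 is lowest in the 4 passage 4 libraries without DOX (85.8 to 97.0 CPM), where Alg9 is highest (43.1 to 49.5 CPM).

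Dnajb11 (ENSMUSG00000004460, chromosome 16, 22857845 to 22879634, plus strand, GRCm38) was the gene with the clearest difference. In passage 7 cells it had 118.5, 117.3, 116.1 and 115.3 CPM with DOX, against 109.8, 108.0, 114.6 and 109.7 CPM without. In passage 4 cells it had 108.1, 111.0, 114.5 and 114.7 CPM with DOX, against 96.4, 85.8, 97.0 and 93.9 CPM without. At each passage all 4 libraries with DOX lay above all 4 without, and the 4 passage 4 libraries without DOX were the lowest of the 16. An exact 2-sided permutation test of 4 against 4 libraries gave p = 0.0286 at each passage, the smallest p such a test can give. At passage 7 the log2 fold change was 0.08 (SE 0.05), with a 95% interval of -0.02 to 0.18 and an adjusted p of 0.27, so the fitted test did not call it. At passage 4 it was 0.26 (SE 0.05, adjusted p = 0.0006), a level 20.1% higher with DOX. Averaged over passages Dnajb11 rose by 0.17 (SE 0.03, adjusted p = 0.0006), and this call and that at passage 4 remained when any single library was left out (averaged 0.15 to 0.18, passage 4 0.23 to 0.28).

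The passage 4 rise was of the same size in each replicate pair, 0.27 (adjusted p = 0.0042) in replicates 1 and 2 and 0.26 (adjusted p = 0.0007) in replicates 3 and 4. The response at passage 7 minus that at passage 4 was -0.19 (SE 0.07), with an unadjusted p of 0.0134 and an adjusted p of 0.25, so a smaller response at passage 7 was not established over all genes. In this comparison of responses none of the 9 genes was called, where 0.516% of all genes were called higher and 0.679% lower (1.19% in all). With DOX, Dnajb11 differed between passage 7 and passage 4 by 0.06 (SE 0.05, adjusted p = 0.36), although the 4 passage 7 libraries all lay above the 4 of passage 4. Without DOX it was 0.25 higher at passage 7 than at passage 4 (SE 0.05, adjusted p = 0.0011), and 0.21 to 0.26 higher when single libraries were left out. The passage 4 libraries without DOX are the baseline both of this comparison and of DOX at passage 4, so the 2 called differences share those libraries.

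The sequence around the start of Dnajb11 is printed because this gene carries the DOX call and because the ER stress response reads known elements in such windows. RefSeq (GRCm38.p6) places 250 bases before the start and 50 from it at chr16:22857595-22857894, plus strand; capitals mark a match to ERSE-II, the second form of the ER stress response element.

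Dnajb11: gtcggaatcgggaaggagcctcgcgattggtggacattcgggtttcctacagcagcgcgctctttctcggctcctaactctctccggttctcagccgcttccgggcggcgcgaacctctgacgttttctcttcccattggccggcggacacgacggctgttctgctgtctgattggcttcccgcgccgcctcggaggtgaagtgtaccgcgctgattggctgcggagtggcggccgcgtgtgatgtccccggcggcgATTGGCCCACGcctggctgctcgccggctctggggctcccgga

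The match runs from base 8 to base 18 after the start, counting the first transcribed base as 1. This motif was added after the window had been read. It was found in 1 of the 8 members with a RefSeq window, and in 12 of 32851 windows of the same length on either strand (0.0365%). Of the 9 of those genes that were tested, 7 were called higher and 0 lower with DOX averaged over passages, with a median log2 fold change of 0.21, against 15.7% of all genes called higher. Dnajb11, whose window led to the motif, is itself among the 9 and among the 7. Those counts describe genes picked by a motif chosen from a member's own sequence and were not tested. The first form of the element, ERSE, was in none of the 8 windows (0.119% of all), and neither was TGACGTG (2.01%) nor TGATGNAA (3.97%). The core letters CCACG, which the second form contains, were in the windows of Ganab, Dnajb11, Sec63 and Alg5 and in 32.8% of all windows (46.1% of those of tested genes). A match is a description of letters and not a bound site, and a window without one is no evidence about a factor.

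**Figure D2:**
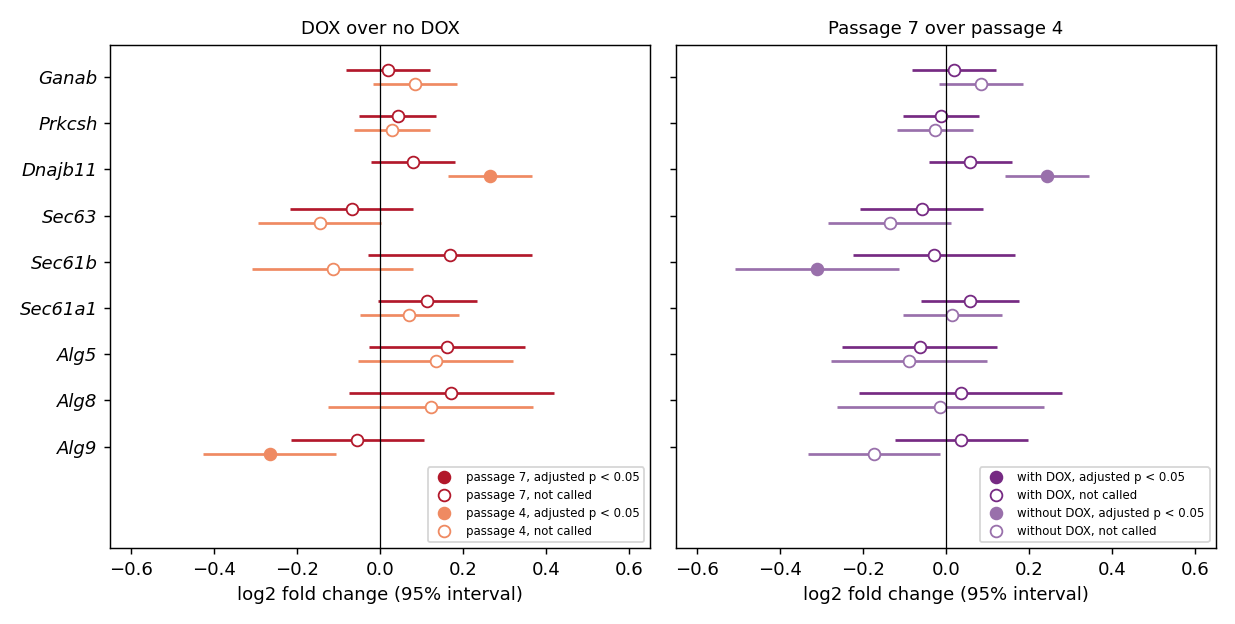
Log2 fold change of each of the 9 genes with its 95% interval, DOX over no DOX on the left and passage 7 over passage 4 on the right; filled points have an adjusted p under 0.05 in the fit of all 15316 genes. The filled points are Dnajb11 and Alg9 for DOX at passage 4 (0.26 and -0.27), and Dnajb11 and Sec61b for passage without DOX (0.25 and -0.31).

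Of the members that build the glycan on dolichol, Alg9 (ENSMUSG00000032059, chromosome 9, 50775019 to 50843542, plus strand), the mannosyltransferase, was the only one called with DOX. At passage 7 it had 38.8, 40.9, 38.9 and 39.3 CPM with DOX, against 35.6, 41.5, 45.9 and 41.0 CPM without. At passage 4 it had 35.4, 39.6, 42.1 and 36.7 CPM with DOX, against 49.5, 45.9, 46.5 and 43.1 CPM without. The groups overlapped at passage 7, while at passage 4 every library with DOX lay below every library without (exact permutation p = 0.0286, 2-sided). At passage 7 its log2 fold change was -0.05 (SE 0.08, 95% interval -0.21 to 0.10, adjusted p = 0.67). At passage 4 Alg9 fell by 0.27 (SE 0.08, adjusted p = 0.0189), so the level fell by 16.9%. Of all genes 11.1% were called higher and 11.6% lower at passage 7, 22.6% in all, and none of the 9 was called there. At passage 4 these shares were 8.45% higher, 9.1% lower and 17.5% in all.

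The Alg9 call is narrow. At passage 4 its adjusted p became 0.068 without replicate 1 with DOX, 0.058 without replicate 4 with DOX and 0.067 without replicate 1 without DOX. Averaged over passages Alg9 was at -0.16 (SE 0.05, adjusted p = 0.0279), and that call ended without any of the same 3 libraries (adjusted p = 0.062, 0.057 and 0.061) and without passage 7 replicate 3 without DOX (0.068). It also ended with no filter on low counts (-0.15, adjusted p = 0.064). The averaged value was -0.14 (adjusted p = 0.10) in replicates 1 and 2 and -0.17 (adjusted p = 0.020) in replicates 3 and 4. The passage 4 difference was -0.34 (adjusted p = 0.0096) in replicates 1 and 2 and -0.19 (adjusted p = 0.11) in replicates 3 and 4. Alg9 starts head to head with 1110032A03Rik on the other strand, with 500 bases of shared exon, and the sources used here do not give the strand setting of the counting. That neighbour held 2859 counts over all libraries, 32.5% of the Alg9 total, and was at -0.01 at passage 4 (adjusted p = 0.97). Without DOX, Alg9 at passage 7 minus passage 4 was -0.17 (SE 0.08, adjusted p = 0.10), a difference that was called in the fit blocked on replicate number (-0.18, adjusted p = 0.0455) and without passage 7 replicate 3 (-0.24, adjusted p = 0.034). It was -0.30 (adjusted p = 0.017) in replicates 1 and 2 and -0.04 (adjusted p = 0.75) in replicates 3 and 4. The neighbour 1110032A03Rik was at -0.22 (adjusted p = 0.18) in the same comparison over all libraries, which was not called. Reads of the shared exon cannot be told apart if strand was not used in counting.

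The window around the RefSeq start of Alg9, chr9:50774975-50775274 on the plus strand of GRCm38.p6, is shown beside that of Dnajb11 since these are the members called in opposite directions. It holds none of the 5 motifs searched and so has no capitals, and its GC content was 46.7%, against 66.0% for the Dnajb11 window and a median of 52.7% over all windows.

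Alg9: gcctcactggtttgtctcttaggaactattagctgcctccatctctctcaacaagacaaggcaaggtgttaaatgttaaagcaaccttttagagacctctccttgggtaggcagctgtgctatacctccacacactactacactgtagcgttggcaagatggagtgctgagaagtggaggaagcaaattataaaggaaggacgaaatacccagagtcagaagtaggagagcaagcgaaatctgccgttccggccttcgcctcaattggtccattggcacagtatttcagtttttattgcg

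Alg5 (ENSMUSG00000036632, chromosome 3, 54735539 to 54751318, plus strand) makes the glucose donor. It averaged 45.0 ± 4.76 CPM with DOX and 40.3 ± 3.30 CPM without at passage 7, and 47.0 ± 5.22 CPM with DOX and 42.8 ± 2.68 CPM without at passage 4 (SD, n = 4 each). Averaged over passages the difference was 0.15 (SE 0.06, 95% interval 0.01 to 0.28, adjusted p = 0.084), which was not called. In the fit blocked on replicate number it was 0.15 with an adjusted p of 0.0176, with the replicate pair as a term 0.15 with an adjusted p of 0.016, and without passage 7 replicate 2 with DOX it was 0.18 with an adjusted p of 0.028. The pairs gave 0.12 (adjusted p = 0.17) in replicates 1 and 2 and 0.17 (adjusted p = 0.027) in replicates 3 and 4. A single library stood out, replicate 3 of the passage 4 cells with DOX at 54.8 CPM, where the other 3 of that group lay between 44.0 and 45.0 CPM. Alg8 (ENSMUSG00000035704, chromosome 7, 97371606 to 97392185, plus strand), the glucosyltransferase that uses this donor, had the lowest level of the 9. It averaged 22.5 ± 2.77 CPM with DOX and 20.0 ± 1.27 CPM without at passage 7, and 22.1 ± 3.91 CPM with DOX and 20.2 ± 1.74 CPM without at passage 4. Its averaged difference of 0.15 had an interval of -0.03 to 0.32 (adjusted p = 0.20). It was 0.06 (adjusted p = 0.65) in replicates 1 and 2, 0.22 (adjusted p = 0.019) in replicates 3 and 4, and 0.20 (adjusted p = 0.049) without passage 4 replicate 2 with DOX.

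Both subunits of glucosidase II were nearly level. Ganab (ENSMUSG00000071650, chromosome 19, 8898071 to 8916672, plus strand), the catalytic subunit, had 427, 440.2, 389 and 401 CPM in passage 7 cells with DOX, against 415, 433, 396 and 389.5 CPM without. In passage 4 cells it had 406, 422, 399 and 406 CPM with DOX, against 387, 384, 385 and 385 CPM without. The passage 7 groups overlapped, while at passage 4 the DOX libraries were all above the others (exact permutation p = 0.0286, 2-sided). The fitted difference there was 0.08 (SE 0.05, adjusted p = 0.27), which was not called. The SD of the passage 4 libraries without DOX was 1.49 CPM, and those of the other groups were 9.62 to 23.6 CPM. Prkcsh (ENSMUSG00000003402, chromosome 9, 22002806 to 22014222, plus strand), the regulatory subunit, lay between 184 and 212 CPM in all 16 libraries. Its averaged DOX difference of 0.04 had a 95% interval of -0.03 to 0.10 (adjusted p = 0.42), and its highest group mean was 1.04 times its lowest, the smallest such ratio of the 9.

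Counted by overlap instead of by the fit, Dnajb11 alone of the 9 genes lay wholly above with DOX at passage 7 and none wholly below, against 12.4% and 12.8% of all genes (25.2% in all). At passage 4, 2 of the 9 lay wholly above (Ganab and Dnajb11) and 1 wholly below (Alg9), against 10.3% and 11% of all genes (21.3% in all). The exact tests numbered 18, 9 genes at 2 passages, of which 4 reached the smallest p, and these p-values are not adjusted.

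No translocon gene of the 9 was called with DOX over all libraries. Sec61a1 (ENSMUSG00000030082, chromosome 6, 88503579 to 88518905, minus strand), the pore, had 262, 246, 224 and 211 CPM in passage 7 cells with DOX, against 223, 210.3, 220.0 and 218 CPM without. In passage 4 cells it had 230.1, 222, 219 and 234 CPM with DOX, against 219, 220.1, 212 and 211 CPM without. Only replicates 1 and 2 of the passage 7 cells with DOX lay clear of the rest. The passage 7 difference was 0.23 (adjusted p = 0.0062) in replicates 1 and 2 and -0.01 (adjusted p = 0.93) in replicates 3 and 4, and 0.11 (SE 0.06, adjusted p = 0.17) over all. Leaving out replicate 4 of the passage 7 cells with DOX turned this into a call (0.16, adjusted p = 0.0495). Averaged over passages Sec61a1 was at 0.09 (SE 0.04, adjusted p = 0.090). That value came to be called in the blocked fit (0.09, adjusted p = 0.043), with the replicate pair as a term (0.09, adjusted p = 0.035) and without the same library (0.12, adjusted p = 0.025). It was 0.14 (adjusted p = 0.013) in replicates 1 and 2 and 0.04 (adjusted p = 0.37) in replicates 3 and 4. The antisense gene Gm44170 shares 549 bases of exon with Sec61a1 and held 26.8% as many counts. It moved by a like amount, 0.08 averaged over passages (adjusted p = 0.17), and reads of the pair cannot be told apart if strand was not used in counting.

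Sec61b (ENSMUSG00000053317, chromosome 4, 47474658 to 47483242, plus strand), the small translocon subunit, was called for passage and not for DOX. It had 29.1, 27.5, 33.3 and 31.1 CPM in passage 7 cells with DOX, against 24.3, 27.8, 29.7 and 25.9 CPM without. In passage 4 cells it had 26.6, 32.7, 34.3 and 29.7 CPM with DOX, against 37.6, 33.9, 31.5 and 30.7 CPM without. Among cells without DOX all 4 passage 7 libraries lay below all 4 of passage 4, and at passage 7 its level fell by 19.4%, a log2 fold change of -0.31 (SE 0.09, adjusted p = 0.0207). The call ended without passage 4 replicate 1 (adjusted p = 0.074), passage 7 replicate 1 (0.071) or passage 7 replicate 4 (0.050), all without DOX. It was -0.45 (adjusted p = 0.0039) in replicates 1 and 2 and -0.16 (adjusted p = 0.24) in replicates 3 and 4. The DOX difference was 0.17 (95% interval -0.03 to 0.37) at passage 7 and -0.11 (-0.31 to 0.08) at passage 4, and the difference between these responses, 0.28 (SE 0.13), had an unadjusted p of 0.0457 and an adjusted p of 0.42. Gm10320, annotated as protein-coding, matches Sec61b at 99.4% over 165 bases, so counts could be split between them, but it held 19 counts in all 16 libraries, against 6496 for Sec61b.

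Sec63 (ENSMUSG00000019802, chromosome 10, 42761496 to 42832514, plus strand), the translocon partner of BiP, averaged 147 ± 7.13 CPM with DOX and 154 ± 8.53 CPM without at passage 7. At passage 4 it averaged 152 ± 12.6 CPM with DOX and 169 ± 16.02 CPM without (SD, n = 4 each), and the groups overlapped at each passage. Averaged over passages it was at -0.11 (SE 0.05, 95% interval -0.21 to -0.00, adjusted p = 0.11). That value came to be called with the replicate pair as a term (-0.11, adjusted p = 0.043), without passage 4 replicate 2 with DOX (-0.14, adjusted p = 0.036) or without passage 4 replicate 3 without DOX (-0.13, adjusted p = 0.042). The averaged value was -0.07 (adjusted p = 0.26) in replicates 1 and 2 and -0.14 (adjusted p = 0.0052) in replicates 3 and 4. At passage 7 the pairs gave 0.03 (adjusted p = 0.79) in replicates 1 and 2 and -0.16 (adjusted p = 0.028) in replicates 3 and 4.

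**Figure D3:**
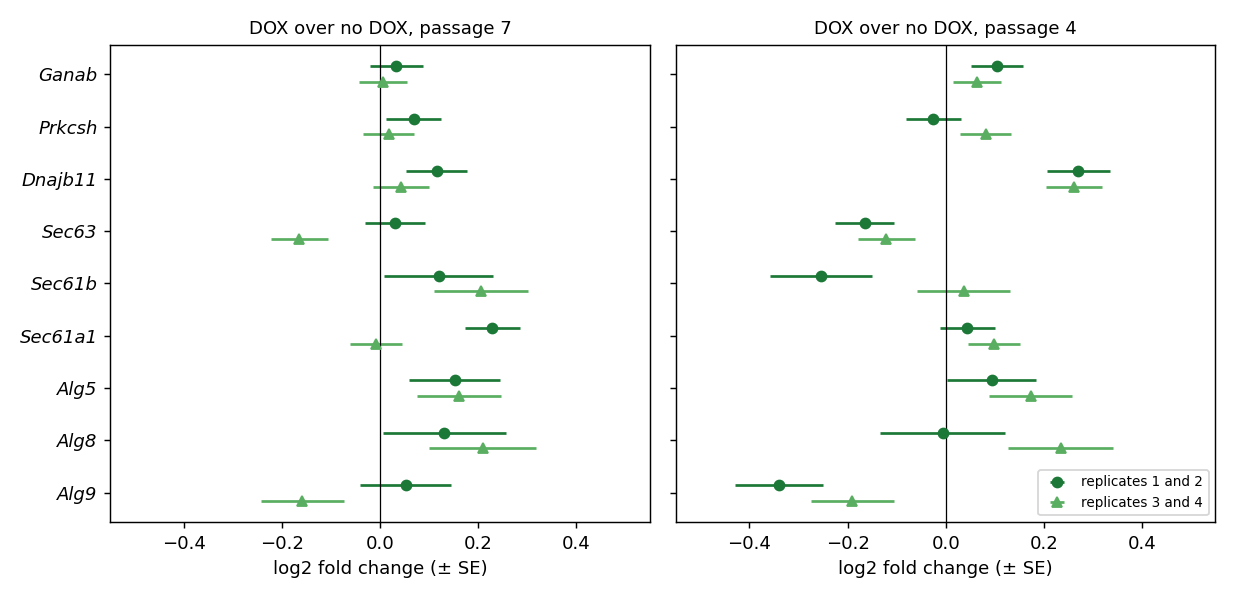
DOX over no DOX for each of the 9 genes, fitted separately in replicates 1 and 2 (circles) and replicates 3 and 4 (triangles), passage 7 on the left and passage 4 on the right; bars are SE. Dnajb11 at passage 4 is the same in each pair (0.27 and 0.26), while Sec61a1 at passage 7 differs (0.23 and -0.01).

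The replicate pairs themselves differed for some members. Replicates 3 and 4 minus replicates 1 and 2, over all groups, was 0.16 for Alg5 (SE 0.05, adjusted p = 0.012) and 0.18 for Alg8 (SE 0.07, adjusted p = 0.033), and -0.07 for Ganab (SE 0.03, adjusted p = 0.048). The other 6 were not called, against 17.5% of all genes called higher and 19.5% lower (36.9% in all). These differences are as large as or larger than those with DOX for the same genes, which were 0.15, 0.15 and 0.05 averaged over passages.

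Passage gave few calls among the 9 genes over all libraries. With DOX none was called for passage 7 over passage 4, against 18.3% higher and 15.8% lower of all genes (34.1% in all), and the 9 values lay between -0.06 and 0.06. Without DOX 1 was called higher at passage 7 (Dnajb11) and 1 lower (Sec61b), against 14.3% and 11.3% of all genes (25.6% in all). By overlap, Dnajb11 alone lay wholly above at passage 7 with DOX and none wholly below, against 17.5% and 14.9% of all genes (32.4% in all). Without DOX, Ganab and Dnajb11 lay wholly above and Sec61b wholly below, against 14.6% and 12.3% of all genes (26.9% in all).

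The replicate pairs differed in these calls. With DOX, Sec61a1 was called higher at passage 7 in replicates 1 and 2 (0.18, adjusted p = 0.020), and was at -0.06 (adjusted p = 0.40) in replicates 3 and 4. Without DOX, Sec63 was called lower at passage 7 in replicates 1 and 2 (-0.30, adjusted p = 0.0009), and was at 0.05 (adjusted p = 0.59), with the opposite sign, in replicates 3 and 4. Ganab without DOX was called higher in replicates 1 and 2 (0.15, adjusted p = 0.045) and was at 0.03 (adjusted p = 0.70) in replicates 3 and 4. Sec61b and Alg9 without DOX were likewise called in replicates 1 and 2 and not in replicates 3 and 4, while Dnajb11 was called in each pair (0.27, adjusted p = 0.0035, and 0.23, adjusted p = 0.0021). The passage and the replicate number of each library rest on the headers of the count table, which the level of Pkd2 does not check.

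Per length of exon the order of levels was Ganab (74.1 CPM per kb), Prkcsh (46.2), Dnajb11 (33.4), Sec61a1 (33.3), Sec61b (23.9), Sec63 (17.7), Alg5 (11.7), Alg9 (10.6) and Alg8 (7.61), as means over the 16 libraries. Glucosidase II thus stood at the top, its subunits above 95.9% and 92.6% of tested genes, and the enzymes of dolichol-linked glycan assembly at the bottom, above 67.1%, 64.3% and 54.6% of them. The ranges over the 16 libraries overlapped between Dnajb11 and Sec61a1, between Sec61b and Sec63, and along Alg5, Alg9 and Alg8. Such ranges set different libraries against each other, so they do not settle the order of these genes within a library. With the longest transcript as the length, Sec61a1 (70.6 CPM per kb) stood above Dnajb11 (43.0) and the other ranks were as before. The ratio of the highest to the lowest group mean was 1.04 for Prkcsh, 1.24 for Sec61b and 1.252 for Dnajb11, the largest of the 9.

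The members did not move as a block across libraries. Over the 36 pairs Pearson's r of log2 CPM over the 16 libraries, which share 4 groups and the replicate pairs, ran from -0.64 to 0.75 with a median of -0.02. The highest was between Prkcsh and Alg5 (0.75, and 0.67 with group means removed) and the lowest between Dnajb11 and Sec63 (-0.64, and -0.19 with group means removed). The subunits of glucosidase II, Ganab and Prkcsh, had an r of -0.10, and the translocon subunits Sec61a1 and Sec61b one of -0.24. Sec61b and Alg9 had an r of 0.62, and 0.75 with group means removed.

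Most like each member, among 11694 genes of at least 5 CPM over the same 16 libraries, were the following. For Dnajb11 they were Lrrc28 and Tekt5 (r = 0.94 each), of which the fit put Lrrc28 at 0.64 and Tekt5 at 0.44 with DOX averaged over passages. For Alg9 they were Gsk3a and Nedd8 (0.83 each), for Alg5 Trir and Atp5h (0.90 each) and for Alg8 Ddx39 (0.83) and Deaf1 (0.81). Ganab was most like Ehd2 (0.92) and Per3 (0.91), and Prkcsh most like Mrpl17 (0.83) and Selenow (0.82). Sec63 was most like Tspyl1 (0.90) and Selenot (0.89), and Sec61b most like Eif3m (0.92) and Uqcrb (0.91). For Sec61a1 the most like gene was its antisense overlap Gm44170 (0.80), followed by Dusp11 (0.80). No member was among the genes most like another.

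The rest of the pathway was read from 6 lists with 91 genes, all of them tested. With DOX averaged over passages 12 were called higher and 16 lower, which is 30.8% of the lists against 32.3% of all genes. Their median log2 fold change was -0.02, and none of those called had changed 2-fold. The share called was 20% in lipid-linked oligosaccharide assembly, 41.7% in the oligosaccharyltransferase and 46.7% in glycan trimming and the lectin cycle. It was 28.6% in the translocon list, 23.1% in BiP and its partners and 30% in the ER membrane protein complex. At passage 7 the counts were 6 higher and 11 lower, 18.7% of the lists against 22.6% of all genes, and at passage 4 they were 5 higher and 7 lower, 13.2% against 17.5%. None of the 91 was called for the difference of the responses.

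**Figure D4:**
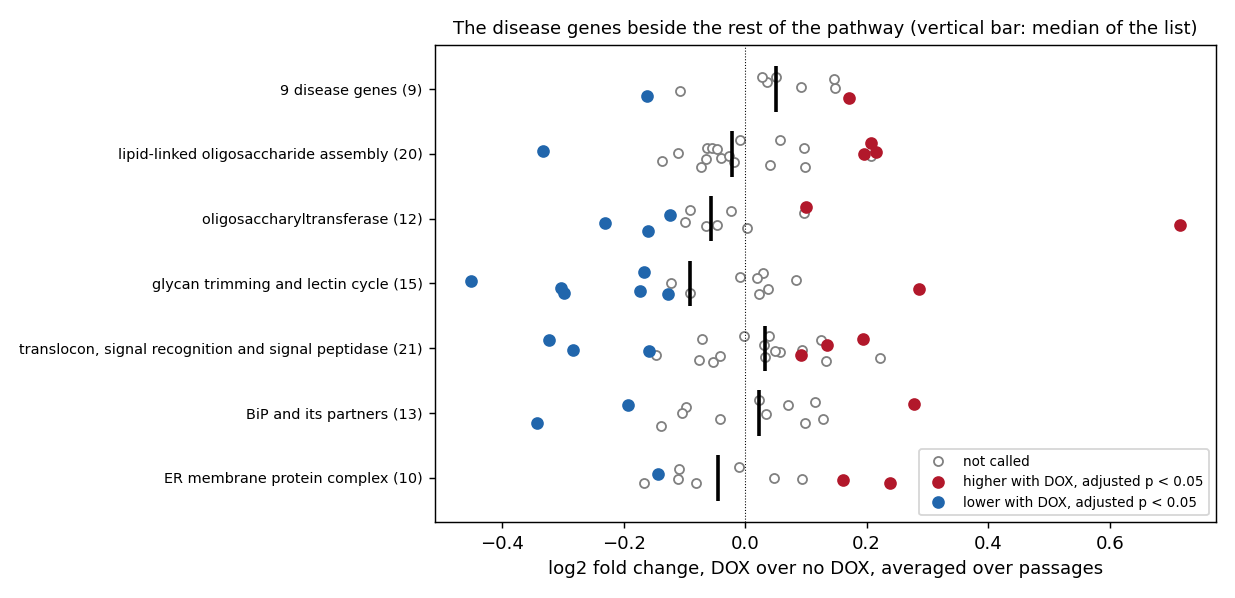
Log2 fold change with DOX, averaged over passages, of the 9 disease genes and of the genes in 6 lists of the same pathway; each circle is a gene, filled where the adjusted p is under 0.05, and the vertical bar is the median of its list. Medians lie between -0.09 and 0.05, and Krtcap2 of the oligosaccharyltransferase list stands alone at 0.72.

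Around Alg8 and Alg9, 3 of 20 genes of lipid-linked oligosaccharide assembly rose and 1 fell (median -0.02). Alg6, which adds the glucose before Alg8, fell by 0.33 (SE 0.07, adjusted p = 0.0015), and Alg10b, which adds the glucose after it, rose by 0.21 (SE 0.04, adjusted p = 0.0006). The glucosyltransferases of this chain thus had values of -0.33 (Alg6), 0.15 (Alg8, not called) and 0.21 (Alg10b). Alg1, the first mannosyltransferase, rose by 0.20 and Dpm2, a subunit of the synthase of dolichol-linked mannose, by 0.22. Alg1 shares 472 bases of exon with Eef2kmt on the other strand.

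Of the 12 genes of the oligosaccharyltransferase, which moves the finished glycan to the protein, 2 rose and 3 fell (median -0.06). Krtcap2, a subunit that ties the enzyme to the translocon, rose by 0.72 (SE 0.06), the largest change among the 91 genes. It averaged 110.5 ± 13.9 CPM with DOX and 56.7 ± 3.70 CPM without at passage 7, and 76.9 ± 9.005 CPM with DOX and 55.5 ± 2.25 CPM without at passage 4 (SD, n = 4 each). Its log2 fold change was 0.96 (SE 0.09) at passage 7 and 0.47 (SE 0.09) at passage 4. It shares 239 bases of exon with Trim46 on the other strand, which held 4536 counts against 16202 for Krtcap2. Tusc3, an oxidoreductase subunit, fell by 0.12 (adjusted p = 0.020), and its relative Magt1 fell by 0.23 (adjusted p = 0.030), while Rpn1, a core subunit, rose by 0.10 (adjusted p = 0.027). The Rpn1 call ended without any of replicates 1 and 3 of passage 7 with DOX, 1 and 4 of passage 7 without, or 3 and 4 of passage 4 without (adjusted p = 0.052 to 0.056). The Magt1 call ended without any of replicates 3 and 4 of passage 7 with DOX, 1 and 2 of passage 7 without, 3 and 4 of passage 4 with DOX, or 1 and 2 of passage 4 without (adjusted p = 0.060 to 0.070).

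Around glucosidase II, 1 of 15 genes of glycan trimming and the lectin cycle rose and 6 fell (median -0.09). Of all genes 15.7% were called higher and 16.6% lower. Calr, the lectin chaperone calreticulin, fell by 0.30 (SE 0.05, adjusted p = 0.0001), at 617 ± 71.8 CPM with DOX and 797 ± 40.6 CPM without at passage 7, and 811 ± 37.2 CPM with DOX and 956 ± 54.9 CPM without at passage 4. Uggt2, a folding sensor related to the enzyme that puts a glucose back, fell by 0.45 (adjusted p = 0.0036). The mannose-trimming genes of ER-associated degradation went opposite ways: Edem2 rose by 0.29 (adjusted p = 0.0001) and Edem3 fell by 0.30 (adjusted p = 0.0010). These 4 genes were called in the same direction at each passage, while Ganab and Prkcsh were called in neither.

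Around Sec61a1, Sec61b and Sec63, 3 of 21 genes of the translocon, signal recognition particle and signal peptidase rose and 3 fell (median 0.03). Spcs3, a signal peptidase subunit, fell by 0.28 (SE 0.05, adjusted p = 0.0001), as did its catalytic partner Sec11a by 0.16 (adjusted p = 0.0038) and the translocon-associated gene Tram2 by 0.32 (adjusted p = 0.0083). Srp72, of the signal recognition particle, rose by 0.13 (adjusted p = 0.0008). The remaining translocon subunit Sec61g was at 0.04 (adjusted p = 0.79) and the Sec63 partner Sec62 at -0.05 (adjusted p = 0.43), both picked after their values were seen. In the ER membrane protein complex, an insertase that works beside the translocon, 2 of 10 rose and 1 fell (median -0.05): Emc6 at 0.24 (adjusted p = 0.0069), Emc8 at 0.16 (adjusted p = 0.026) and Mmgt1 at -0.14 (adjusted p = 0.014). Emc10 was at -0.08 (adjusted p = 0.15). The Emc8 call ended without replicate 3 of passage 7 with DOX, replicate 4 of passage 7 without, replicate 3 of passage 4 with DOX or replicate 4 of passage 4 without (adjusted p = 0.055 to 0.058), and Emc8 shares 154 bases of exon with the more abundant Cox4i1 on the other strand.

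Dnajb11 works with BiP, and of 13 genes of BiP and its partners 1 rose and 2 fell with DOX (median 0.02). BiP itself, Hspa5, was at 0.02 (SE 0.05, adjusted p = 0.74), a value picked after it was seen. Sil1, which exchanges the nucleotide of BiP, rose by 0.28 (adjusted p = 0.0002), while Pdia6, a disulfide isomerase, fell by 0.19 (adjusted p = 0.0002). Sdf2l1, whose product forms a complex with that of Dnajb11, fell by 0.34 (SE 0.08, adjusted p = 0.0022), at 21.8 ± 2.95 CPM with DOX and 28.7 ± 3.40 CPM without at passage 7. Dnajc3, another co-chaperone of BiP, was at 0.12 (adjusted p = 0.071), and in the blocked fit at 0.12 with an adjusted p of 0.016. It was also called with the replicate pair as a term (0.12, adjusted p = 0.011), in replicates 1 and 2 alone (0.15, adjusted p = 0.020) and without replicate 3 or replicate 4 of passage 4 with DOX (adjusted p = 0.041 and 0.048), and was at 0.08 (adjusted p = 0.12) in replicates 3 and 4. Between passages with DOX, 7 of the 13 were called lower and 1 higher at passage 7 (median -0.23), against 15.8% of all genes lower and 18.3% higher. Without DOX, 7 were called lower and 0 higher (median -0.20), against 11.3% and 14.3% of all genes. The other members of this list were not called in the same comparisons. Over the 91 genes of the pathway lists, 21 were called lower and 10 higher at passage 7 with DOX. Without DOX 25 were called lower and 6 higher. There, glycan trimming had 5 of 15 lower and 0 higher, and the ER membrane protein complex 4 of 10 lower and 0 higher. The translocon list had 4 lower and 1 higher, the oligosaccharyltransferase 3 and 2, and oligosaccharide assembly 2 and 3. The passage differences of Dnajb11 were 0.06 with DOX and 0.25 without.

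Of the client membrane proteins, Pkd2 fell by design (-1.56, SE 0.06) and Pkhd1, fibrocystin of recessive polycystic disease, fell by 0.66 (SE 0.09). Pkd1 was at 0.15 (SE 0.06, adjusted p = 0.052), in the blocked fit at 0.15 with an adjusted p of 0.026, and by DESeq2 at 0.15 with an adjusted p of 0.047. It was also called with no filter on low counts (0.16, adjusted p = 0.048), with the replicate pair as a term (0.15, adjusted p = 0.021) and in replicates 1 and 2 alone (0.19, adjusted p = 0.015), and was at 0.13 (adjusted p = 0.061) in replicates 3 and 4. It was called too on leaving out passage 7 replicate 3 with DOX, passage 7 replicate 1 without or passage 4 replicate 4 without (0.18 to 0.19, adjusted p = 0.015 to 0.031), and it shares 693 bases of exon with Tsc2 on the other strand. At passage 7 Pkd1 was at 0.05 (SE 0.08, adjusted p = 0.72), and at passage 4 it rose by 0.25 (SE 0.08, adjusted p = 0.037). Lrp5, a Wnt co-receptor mutated in polycystic liver disease, was at -0.22 (SE 0.07, adjusted p = 0.029), a call that ended on leaving out any of replicates 3 and 4 of passage 7 with DOX, 1 and 2 of passage 7 without, 3 and 4 of passage 4 with DOX or replicate 1 of passage 4 without (adjusted p = 0.056 to 0.062).

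Cell type markers differed between the same groups. The summed level of 17 collecting duct markers was 4126 to 4591 CPM with DOX and 4911 to 5441 CPM without at passage 7, and 3481 to 3625 CPM with DOX and 4400 to 4599 CPM without at passage 4. Krt8 and Krt18, keratins of many epithelia, made up most of these sums, with medians of 1838 and 1361 CPM. Of the 11 collecting duct markers tested, 1 was called higher and 4 lower with DOX at passage 7, against 11.1% and 11.6% of all genes. At passage 4, 2 were called higher and 2 lower, against 8.45% and 9.1% of all genes. Averaged over passages 1 was called higher and 6 lower, 63.6% of the tested markers against 32.3% of all genes. The summed level of 5 leukocyte markers was 36.1 to 43.7 CPM with DOX and 67.1 to 75.2 CPM without at passage 7, and 20.1 to 35.5 CPM with DOX and 39.0 to 46.9 CPM without at passage 4. Endothelial and loop markers summed to at most 1.00 CPM in any library. Over all libraries the summed intercalated cell markers lay between 5.43 and 29.0 CPM, fibroblast markers between 0.732 and 6.52 CPM and proximal tubule markers between 0.465 and 2.82 CPM. The part of these in the differences of Dnajb11 and Alg9 was not tested, and in bulk RNA fewer cells of a type and less RNA per cell cannot be told apart.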

How the data were processed

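Deposited by the authors were raw read counts per gene and TPM (transcript abundances) for the same 16 libraries. Per the labels' protocols, poly(A) RNA was made into strand-marked libraries, read as 2 reads of 75 bp and aligned with STAR 2.6.0c to GRCm38.p6. How reads were counted and how TPM was made is not stated. By correlation over 6880 genes, 4 of the 16 deposited TPM columns belong to the counts of their own header and 12 to those of a different group (best r at least 1.000 when rounded, next at most 0.941), so TPM enters no result. Pkd2 was low in 8 of the 8 count columns headed DOX and 0 of the 8 headed no DOX, but in 4 of the 8 and 4 of the 8 TPM columns, low being below the midpoint of the lowest and highest value. The count headers were used on that basis. Pkd2 checks the DOX label alone, so passage and replicate number could be wrong in the count headers, which was not tested.

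All results use the deposited counts. All 55536 identifiers matched the GENCODE M21 annotation, and 25677 genes had no count. filterByExpr kept 15316 genes. Libraries were scaled by TMM and fitted together with edgeR 4.0.16 (robust quasi-likelihood, 1 mean for each group, 12 residual degrees of freedom; R 4.3.3). The 6 contrasts were DOX at each passage, their mean and difference, and passage with and without DOX. Exact permutation tests used Python 3.11.15, and near-identical copies were searched with BLAST 2.17.0. The fit was also run on simulated counts with known changes. Those counts held no difference between replicate pairs, so they cannot show how the fit handles one.

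Libraries with the same replicate number departed from their group means together (r 0.18 to 0.37), and so did all libraries of a replicate pair, 1 and 2 or 3 and 4 (r 0.18 to 0.39, and -0.34 to -0.18 between pairs). For 8 of the 16 libraries the most correlated library of another group had the same number, so a pairing by number was not settled. The main fit had no term for the number or the pair. A blocked fit on replicate number is given where it changed a call. Other alternatives were DESeq2 1.42.0, its size factors, no filter, the replicate pair, each pair alone, and each library left out.

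The genes, lists and motifs were chosen with earlier results of these data known. Named genes are the 9 members, up to 4 genes per list by smallest adjusted p for DOX averaged over passages, Pkd2, Pkd1, and the 2 genes most correlated with each member. Sec61g, Sec62 and Hspa5 were named outside that rule, after their values were seen.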

Additional observations from a re-analysis of the deposited data

Results flagged for a closer look

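A single value stood out among 40 groups of 4 libraries, the 9 members and Pkd2 in each of the 4 groups. Alg5, the synthase of the dolichol-linked glucose donor, was at 54.8 CPM in replicate 3 of the passage 4 cells with DOX. Its gap to the nearest of the other 3 libraries was 0.902 of the range of the group, above the critical value of 0.829. Chance flags about 1 in 20 groups. Replicates 3 and 4 were higher than replicates 1 and 2 in Alg5 over all groups (0.16, adjusted p = 0.012). Without this library the DOX difference of Alg5 at passage 4 was the lowest of its leave-one-out range, 0.05 to 0.16.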

How the results depend on the processing

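Over single genes, 510 of the alternative values kept direction and side of the threshold, 24 gained a call, 16 lost one and 24 changed sign. With single libraries left out these numbers were 1238, 12, 35 and 27. DESeq2, its size factors, the block and the replicate pair turned no member round. The Dnajb11 calls were kept in all alternatives run, and the cause of the other changes was not tested.

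Members called with DOX averaged over passages, 1 higher and 1 lower, became 3 higher with the replicate block, 3 and 2 with the replicate pair as a term, 2 and 0 in replicates 1 and 2 alone, 3 and 2 in replicates 3 and 4 alone, and 0 lower with no filter (1 to 2 and 0 to 2 with single libraries left out). At passage 7 replicates 1 and 2 called 1 higher and replicates 3 and 4 called 1 lower (0 to 1 higher, leave-one-out). At passage 4 replicates 3 and 4 called 0 lower (0 to 1, leave-one-out). For passage with DOX replicates 1 and 2 called 1 higher. For passage without DOX the block called 2 lower, replicates 1 and 2 called 2 higher and 3 lower, and replicates 3 and 4 called 0 lower (0 to 2, leave-one-out).

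Over all genes, DOX averaged over passages called 2401 higher and 2547 lower. Both counts also rose with the block, with the pair and in replicates 3 and 4 alone. Both fell in replicates 1 and 2 alone and with no filter. The gains in members called in that comparison thus came with gains over all genes, and whether they exceeded those was not tested. DOX at passage 4 called 1294 of all genes higher and 1393 lower, against 2031 and 2145 with the block and 2135 and 2219 with the pair. Passage without DOX called 1735 lower, against 2660 and 2774. The difference of responses called 79 and 104, against 143 and 206 by DESeq2, 287 and 428 with the block, 339 and 482 with the pair, 347 and 488 in replicates 1 and 2, and 185 and 322 in replicates 3 and 4 (45 to 95 and 61 to 135, leave-one-out). The block changed the calls of Sec61a1 and Alg5 averaged over passages and of Alg9 for passage without DOX, and of no other member; beyond the members it changed those of Dnajc3 and Pkd1 among the named genes. Among list genes, calls of Tusc3, Rpn1, Magt1, Mmgt1 and Lrp5 ended with no filter (adjusted p = 0.062 to 0.098), those of Rpn1, Uggt2, Tram2 and Emc8 in replicates 1 and 2 alone (0.053 to 0.21), and those of Alg6, Tusc3 and Mmgt1 in replicates 3 and 4 alone (0.063 to 0.11).

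Signs changed in values not called. In replicates 1 and 2 alone these were Sec61b averaged (-0.067), Prkcsh (-0.025) and Alg8 (-0.0057) at passage 4, Sec63 (0.030) and Alg9 (0.052) at passage 7, Prkcsh for passage with DOX (0.045), and Sec61a1 (-0.0091) and Alg8 (0.087) for passage without. In replicates 3 and 4 alone they were Sec61b at passage 4 (0.037), Sec61a1 at passage 7 (-0.0089), the difference of responses of Prkcsh (-0.064), Sec63 (-0.044), Sec61a1 (-0.11), Alg5 (-0.013) and Alg8 (-0.025), passage with DOX of Ganab (-0.029), Sec63 (0.0022), Sec61b (0.011), Sec61a1 (-0.059), Alg8 (-0.12) and Alg9 (-0.0098), and passage without DOX of Prkcsh (0.0043) and Sec63 (0.046). With no filter Sec61a1 for passage without DOX was at -0.00035. With single libraries left out, values crossed 0 at passage 7 for Ganab (-0.010 to 0.049) and Alg9 (-0.12 to 0.0074), in the difference of responses for Prkcsh (-0.0069 to 0.041), Sec61a1 (-0.0093 to 0.089), Alg5 (-0.034 to 0.11) and Alg8 (-0.053 to 0.13), for passage with DOX for Ganab (-0.0092 to 0.050), Prkcsh (-0.031 to 0.015), Sec63 (-0.091 to 0.00077), Sec61b (-0.091 to 0.026), Alg5 (-0.12 to 0.017) and Alg8 (-0.067 to 0.12), and for passage without DOX for Alg8 (-0.050 to 0.042).

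Depth limits Alg8 most, at 187 to 393 counts per library, and Sec61b next, at 258 to 557. The fit had a biological coefficient of variation of 10.0%.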
